A study of Solanum lycopersicum with 4 samples.

Results

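Among the transcripts measured in tomato leaves during 48 h at 10 °C, 133 genes stood near their starting level after 3 h and were at least 4-fold higher after both 24 and 48 h. They were chosen by their own read counts, from 13840 genes compared (0.961%) and 26219 genes listed in any library. A chosen gene was listed at all 4 times, averaged at least 5 CPM (a count divided by its scaled library total, times 1000000), differed by no more than 2-fold between 0 and 3 h, and had a log2 ratio to 0 h of 2 or more in each of the 24 and 48 h libraries. Ratios were taken after adding 0.135 CPM, which is 5 reads in a library of mean size. The early level and the late rise are therefore what defined these genes, and the ratios to 0 h below describe them without testing anything.

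The libraries came from Solanum lycopersicum, cultivar Moneymaker, from the first true leaf pair of seedlings aged 3 weeks, with no mutant or transgenic line in any group. Plants were raised at 25 °C, and the light intensity was 100 µmol m-2 s-1 during growth and 40 in the cold, with a day of 12 h in both. The 4 groups were 0, 3, 24 and 48 h of exposure, and each group was 1 RNA-seq library of 35.7 M (24 h) to 38.5 M (0 h) unique reads, where M is 1000000. Every difference below is thus between single libraries, with no replicate, no p-value and no measure of plant-to-plant spread. The intervals given are exact Clopper-Pearson intervals (95%) and cover counting error only. The title of the 0 h library also names 10 °C, and no label says at which temperature and light those plants were taken. It is read below as the start of the exposure, and whether it stands for plants at 25 °C was not tested. Lower temperature and lower light cannot be told apart in this design. No group was kept at 25 °C for 24 or 48 h, so elapsed time cannot be told apart from them either. The hour of harvest is not given in the sources used here. If all plants entered the cold at the same hour, the 0, 24 and 48 h harvests shared that hour and the 3 h harvest did not. Whether the 3 h values follow the hour of the day was not tested. In whole leaves, a higher transcript level per cell and a larger share of cells that carry the transcript cannot be told apart either.

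Plants meet cold in stages. In Arabidopsis, CBF transcription factors rise within hours of a cold shift, and they activate a wider set of cold-regulated genes, among them genes for protective dehydrin proteins and for enzymes of soluble sugar synthesis. Tomato carries CBF genes as well but is injured by chilling, and a mild cold period before a harder one can raise its tolerance. The deposited files give the 133 genes as identifiers only, none of them matched the RefSeq gene table of the assembly SLM_r2.1, and so no name or function is attached to any gene below. The chromosome of each gene was read from its identifier, which by convention numbers tomato genes along each chromosome.

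During the exposure these genes went from a minor to a visible part of the leaf transcriptome. Together they took 0.139% of all reads at 0 h and 0.149% at 3 h, and then 1.08% at 24 h and 1.03% at 48 h. At 0 h a gene of the group had between 16 and 4508 reads with a median of 186, and at 48 h between 309 and 23715 with a median of 1345. Per kilobase of gene length, the median level of the group was 3.64 CPM at 0 h and 4.16 CPM at 3 h, then 28.3 CPM at 24 h and 25.2 CPM at 48 h. All genes compared had medians per kilobase of 14.5, 15.0, 15.1 and 14.9 CPM at the same times. The group thus lay below the middle of the transcriptome at the start and above it a day later. At 0 h 21 of the 133 genes exceeded the median level of all genes compared, at 24 h 87 did and at 48 h 92 did. None was among the 1384 genes (10%) of highest level per kilobase at 0 h or at 3 h, while 15 were at 24 h and 14 at 48 h. These late shares, 11.3% and 10.5% of the group, were close to the 10% of all genes compared.

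**Figure D1:**
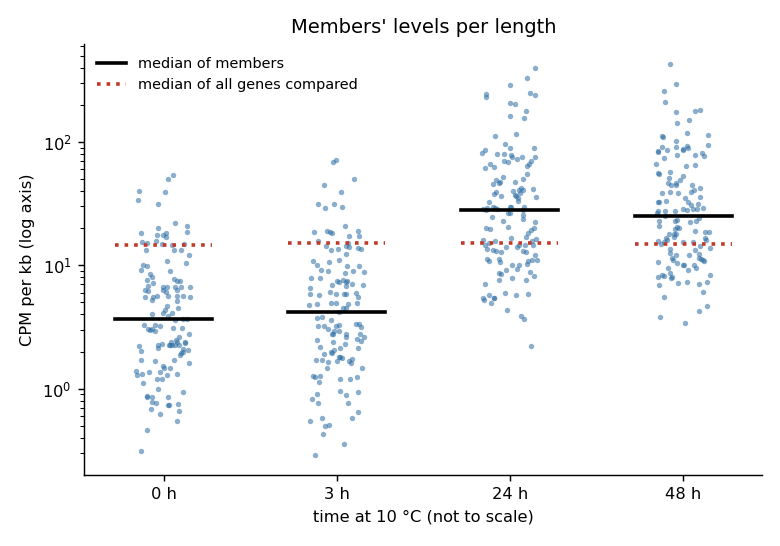
Level of each of the 133 genes in CPM per kilobase of gene length (log axis) in each of the 4 libraries, with 1 point per gene. The median of the group (solid line) lay at 3.64 at 0 h and 25.2 at 48 h, and the median of all genes compared (dotted line) stayed between 14.5 and 15.1.

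A low start is partly built into the choice of genes, since a rise of at least 4-fold is easier to meet from a low level. At 0 h 66 of the 133 genes were under 5 CPM and so met the minimum mean through their later levels alone. Coverage follows from the same reads that chose the genes and is given as a description. The median coverage, a percentage of gene length deposited by the authors, was 89.1% at 0 h and 90.1% at 3 h, and it reached 98.2% at 24 h and 98.1% at 48 h. Over all genes compared it stayed between 96.9% and 97.4%.

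The median log2 ratio of CPM to 0 h was 0.06 at 3 h, with quartiles of -0.22 and 0.39, and 78 genes (58.6%) lay above and 55 below 0 h at that time, beside 50.4% above among all genes compared. For 69 genes the counting interval of the 3 h ratio included no difference, for 40 it lay above and for 24 below. At 24 h the median log2 ratio was 2.52 (quartiles 2.27 and 2.94), and at 48 h it was 2.57 (2.23 and 3.10). All genes compared had medians of 0.02 and 0.0046 at these times. A ratio of 4-fold or more was found for 2.17% of all genes compared at 24 h and for 2.06% at 48 h, and for all 133 by choice. Most of the group sat not far above that limit, with 87 genes under 8-fold at both late times. At least 8-fold higher at both times were 20 genes, and 7 of these were at least 16-fold higher at both.

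Measured against the 3 h library, 116 of the 133 genes had 4-fold or higher levels at 24 h (1.78% over all genes compared) and 105 at 48 h (1.89%). The limits set at 3 and 24 h make every gene at least 2-fold higher in these ratios, so nothing is read from these shares. The lowest log2 ratio to 3 h was 1.12 at 24 h and 1.14 at 48 h. The base mattered for who belongs to the group. With 3 h as the base and 0 h held within 2-fold of it, 155 genes met the limits, 101 of them among the 133.

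The 8 genes with the largest value of the smaller late ratio had from 16 to 779 reads at 0 h, on both sides of the group's median of 186. Where 4 read counts follow each other below, they stand in the order 0, 3, 24 and 48 h. Solyc11g008530.1.1 on chromosome 11 had 45, 37, 1615 and 1873 reads. It was 34.1-fold higher at 24 h (25.4 to 47.0) and 36.0-fold higher at 48 h (26.8 to 49.6), with no difference between 0 and 3 h beyond counting error. Reads covered 36.2% of this gene at 0 h and 96.3% at 24 h.

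Solyc03g115930.1.1 on chromosome 3 had 30, 58, 868 and 1136 reads. Its log2 ratio at 3 h was 1.00 (0.996 before rounding), the highest of the group and just within the limit. Without the pseudocount it was 2.16-fold (1.37 to 3.47) above 0 h at 3 h. The log2 ratio was 1.001 with DESeq2 size factors and 1.10 with a pseudocount of 0.5 reads, so this gene leaves the group under both settings. It was 27.5-fold above 0 h at 24 h (19.1 to 41.0) and 32.8-fold at 48 h (22.8 to 48.8). Solyc01g096320.2.1 on chromosome 1 had 80, 139, 3165 and 1944 reads. This gene peaked in the 24 h library, at 37.6-fold (30.1 to 47.6), and was 21.1-fold above 0 h at 48 h (16.8 to 26.7). Solyc05g052950.2.1 on chromosome 5 also peaked at 24 h, with 347, 281, 13607 and 6258 reads, but at 3 h it stood at 0.90-fold (0.77 to 1.06) where Solyc01g096320.2.1 stood at 1.94-fold (1.46 to 2.58). Its log2 ratio of 5.20 at 24 h was the largest of the group at that time, and at 48 h it stood at 3.95.

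Of the remaining steep genes, some were higher at 48 h than at 24 h. Solyc06g067980.2.1 on chromosome 6 had 45, 29, 842 and 1674 reads, so its 48 h level was 1.81-fold its 24 h level (1.67 to 1.97). Solyc09g011630.2.1 on chromosome 9 had 107, 96, 1924 and 3137 reads, and its 3 h ratio to 0 h was 1.00 (0.75 to 1.33). Solyc03g098650.2.1 on chromosome 3, with 16, 15, 469 and 447 reads, had the fewest reads at 0 h of the whole group and did not climb further after 24 h. Its ratio of 27.9 at 24 h carries the widest relative counting error of these 8 genes, from 17.0 to 49.2.

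**Figure D2:**
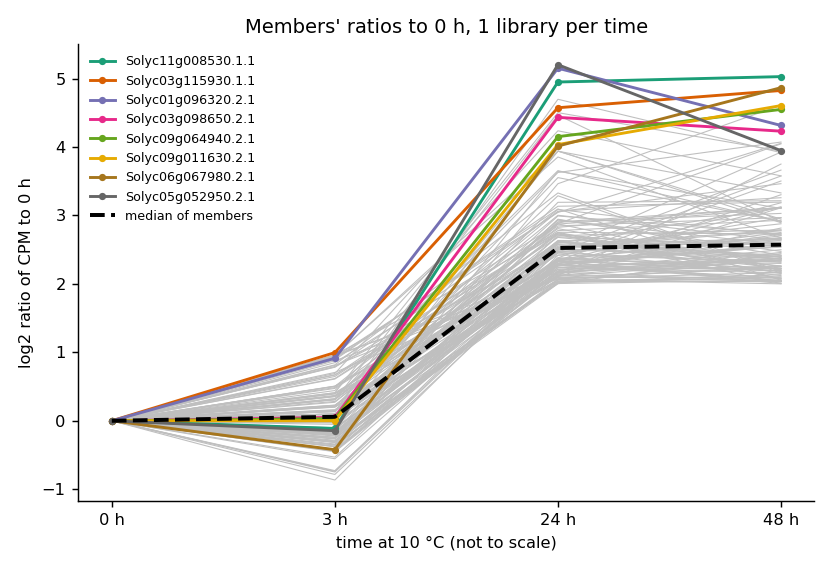
Log2 ratio of CPM to 0 h for each of the 133 genes (grey) at the 4 sampling times, 1 library per time, with the 8 genes of the largest smaller late ratio in colour and the group median dashed. The lines lie between -0.87 and 1.00 at 3 h, and the median is 2.52 at 24 h and 2.57 at 48 h.

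The genes of highest level were mostly others. The 8 genes with the highest CPM at 48 h held 36.0% of the reads of the group at that time and 35.5% at 0 h. Solyc09g083080.2.1 on chromosome 9 had 4284, 3582, 20521 and 23715 reads, the last being the most of the group at 48 h. In CPM it went from 118 and 111 to 540 and 568, a rise of 4.55-fold at 24 h (4.41 to 4.71) and 4.80-fold at 48 h (4.64 to 4.95). Solyc01g106210.2.1 on chromosome 1 had the highest 0 h count of the group, with 4508 reads, followed by 3567, 19044 and 21637. It only just met the limit, at 4.02-fold (3.89 to 4.15) at 24 h and 4.16-fold (4.03 to 4.29) at 48 h.

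Solyc09g064940.2.1 on chromosome 9 was the gene in both sets of 8. It had 779 reads at 0 h and 714 at 3 h, and 14638 at 24 h and 21178 at 48 h. Per kilobase its level was 18.3 CPM at 0 h and 432 CPM at 48 h, which moved it from rank 5783 to rank 233 among the 13840 genes compared. Per kilobase, this was the highest level of these 8 genes at 48 h. Its ratio to 0 h was 17.9 at 24 h (16.6 to 19.2) and 23.5 at 48 h (21.9 to 25.3), and the narrow intervals follow from the high counts.

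The other 5 genes of high level divided by where they peaked. Solyc07g047790.2.1 on chromosome 7 had 1996, 1548, 9277 and 16260 reads, and Solyc03g079930.2.1 on chromosome 3 had 1485, 1175, 11477 and 14902. Both were highest at 48 h. Solyc01g107820.2.1 on chromosome 1 had 2680, 4332, 20725 and 14230 reads, Solyc11g008540.1.1 on chromosome 11 had 747, 891, 17900 and 13317, and Solyc12g006050.1.1 on chromosome 12 had 2521, 3986, 26671 and 13197. These 3 were highest at 24 h, and each was also above 0 h at 3 h, by 1.80-fold (1.72 to 1.89), 1.33-fold (1.21 to 1.47) and 1.76-fold (1.68 to 1.86). With 26671 reads, Solyc12g006050.1.1 was the most highly counted gene of the group in any library.

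Between 24 and 48 h the median level of the group changed little, while single genes moved apart. The median log2 ratio of 48 h to 24 h was 0.05, with quartiles of -0.31 and 0.28, beside a median of 0.0015 and quartiles of -0.21 and 0.21 over all genes compared. At 48 h 71 genes were above and 62 below their 24 h level, and for 26 genes the counting interval included no difference. Within 2-fold between these times were 116 genes (87.2%), against 97.4% of all genes compared. At least 2-fold higher at 48 h were 10 genes of the group (7.52%), beside 1.12% of all genes compared, and at least 2-fold lower were 7 (5.26%), beside 1.47%. The choice of genes required 4-fold in both of these libraries, which favours genes that kept their level between them. Its part in the small median change and in the wider spread was not tested. The 300 genes at least 4-fold higher at 24 h, with no limit at 3 or 48 h, had a median log2 ratio of 48 h to 24 h of -0.31. That choice used the 24 h library as well. Among the 103 genes chosen by the mirror rule, lower late, 3 were higher and 2 were lower at 48 h than at 24 h by 2-fold or more. Among the 27 genes that met the 4-fold limit at each of 3, 24 and 48 h, 2 were higher and 9 were lower by 2-fold or more.

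The genes that were higher at 48 h had fewer reads at 24 h than the genes that were lower at 48 h. Counts at 24 h ran from 168 to 1899 reads for the former 10 and from 3216 to 26671 for the latter 7. The 24 h count is the base of the ratio that picked these genes, so nothing is read from this difference. Solyc01g006650.1.1 on chromosome 1 had the largest ratio of 48 h to 24 h, with 33, 23, 168 and 583 reads, a ratio of 3.16 between the late times (2.66 to 3.77). Solyc09g097960.2.1 on chromosome 9 had 41, 30, 267 and 799 reads, with a ratio of 2.73 (2.37 to 3.14). Solyc07g065410.1.1 on chromosome 7, a short gene of 306 bases, had 36, 21, 232 and 592 reads, with a ratio of 2.32 (1.99 to 2.72). All 3 were lower in reads at 3 h than at 0 h, but within counting error.

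Solyc02g093710.1.1 on chromosome 2 fell back the most. It had 149, 166, 3568 and 1329 reads, so that its level was 2.95-fold lower at 48 h than at 24 h (2.77 to 3.14). Solyc05g052950.2.1, described above among the steepest genes, was 2.39-fold lower (2.32 to 2.46). Solyc02g067230.2.1 on chromosome 2 had 207, 364, 3216 and 1553 reads, and was 2.27-fold lower (2.14 to 2.42). At 48 h these 3 still stood 7.73-, 15.6- and 6.50-fold above 0 h.

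**Figure D3:**
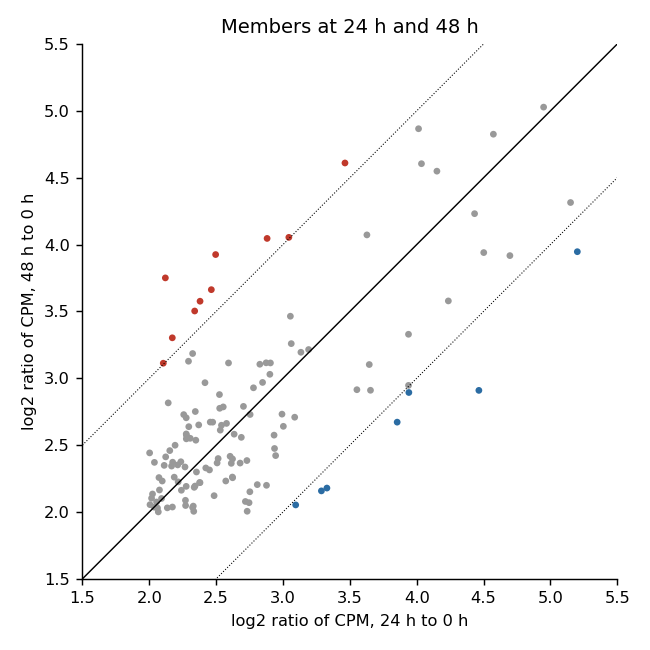
Log2 ratio of CPM to 0 h at 24 h (horizontal) and at 48 h (vertical) for the 133 genes, 1 point per gene. The solid line marks equal ratios and the dotted lines a 2-fold difference between the late libraries, beyond which lie 10 genes higher at 48 h (red) and 7 lower (blue).

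The limits of the group cut through a continuous range of ratios. Just inside the 4-fold limit were Solyc09g010390.2.1 (log2 ratio 2.0003 at 48 h), Solyc09g009400.2.1 (2.002 at 24 h) and Solyc03g116100.2.1 (2.005 at 48 h). Just outside were Solyc06g005860.1.1 (1.994 at 24 h), Solyc02g082970.1.1 (1.991 at 48 h) and Solyc02g038750.2.1 (1.981 at 24 h). Reads of Solyc09g010390.2.1 were 223, 209, 999 and 1047, and those of Solyc02g082970.1.1 were 240, 219, 1065 and 1118, so genes on either side of the limit looked alike. For 95 of the 133 genes the counting intervals lay wholly above 4-fold at both late times. Another 60 genes that met the 3 h limit reached 4-fold at 24 h but not at 48 h, and 54 of these were at least 2-fold higher at 48 h. Likewise 66 reached 4-fold at 48 h but not at 24 h, and 61 of them were at least 2-fold higher at 24 h.

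At the 3 h limit, 194 genes (1.40% of all compared) met the 4-fold limit at both late times. Of these, 56 were left out for being more than 2-fold above 0 h at 3 h and 5 for being more than 2-fold below it. The nearest of those left out was Solyc10g086250.1.1 on chromosome 10, with a log2 ratio of 1.002 at 3 h and 217, 394, 1412 and 1529 reads at the 4 times.

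Gene order, which the choice of genes did not use, placed some of the 133 close together. Within 5 listed genes of another gene of the group were 20 of the 133 (15.0%), while 706 of the other 13707 genes compared (5.15%) lay that close to a gene of the group. These 20 genes formed 10 pairs on chromosomes 1, 3, 4, 7, 9 and 11, and 6 of the pairs were immediate neighbours in the list. Genes next to each other can be copies with similar sequence or can overlap, and unique reads may then be split between them or lost. The deposited counts do not show which, and that was not tested.

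On chromosome 11, Solyc11g008530.1.1 and Solyc11g008540.1.1 are neighbours of similar length, 3954 and 4059 bases, and both were among the genes described above. Per kilobase their levels differed widely, at 0.31 and 5.09 CPM at 0 h and 11.4 and 78.6 CPM at 48 h. The lower gene held its level from 24 to 48 h, with a ratio of 1.06 (0.99 to 1.13), while the higher one was 1.48-fold lower at 48 h (1.44 to 1.51). The other adjacent pair on this chromosome, Solyc11g011330.1.1 and Solyc11g011340.1.1, differed in size of response. The first had 92, 96, 413 and 453 reads and the second 582, 482, 9474 and 5029, over lengths of 1071 and 1080 bases. At 24 h the first was 4.27-fold above 0 h (3.40 to 5.41) and the second 15.5-fold (14.2 to 16.9), intervals that did not overlap.

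In both adjacent pairs on chromosome 4 the counting intervals of the 24 h ratios overlapped. Solyc04g081890.1.1 had 113, 178, 1025 and 1496 reads and its neighbour Solyc04g081900.2.1 had 378, 422, 2851 and 3797. Their ratios to 0 h at 24 h were 8.63 (7.10 to 10.6) and 7.17 (6.44 to 8.01), and both were higher still at 48 h. Solyc04g040170.2.1 had 87, 122, 658 and 802 reads and Solyc04g040180.2.1 had 123, 91, 642 and 740. Their log2 ratios to 0 h at 3 h were 0.62 and -0.27, and their levels per kilobase at 48 h were nearly equal, 16.1 and 15.9 CPM.

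On chromosome 3, Solyc03g115920.2.1 had 71, 83, 661 and 833 reads, beside the steep gene Solyc03g115930.1.1 given above. At 24 h it was 8.85-fold above 0 h (6.92 to 11.5), well short of the 27.5-fold of its neighbour. Solyc03g098640.2.1 had 170, 128, 1369 and 1643 reads next to Solyc03g098650.2.1, and it was 7.66-fold above 0 h at 24 h (6.53 to 9.03) against 27.9-fold. In both pairs the gene with fewer reads at 0 h had the larger ratio. Among the adjacent pairs the reverse held only for Solyc11g011330.1.1 and Solyc11g011340.1.1. The 0 h count is the base of the ratio, so nothing is read from this order.

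**Figure D4:**
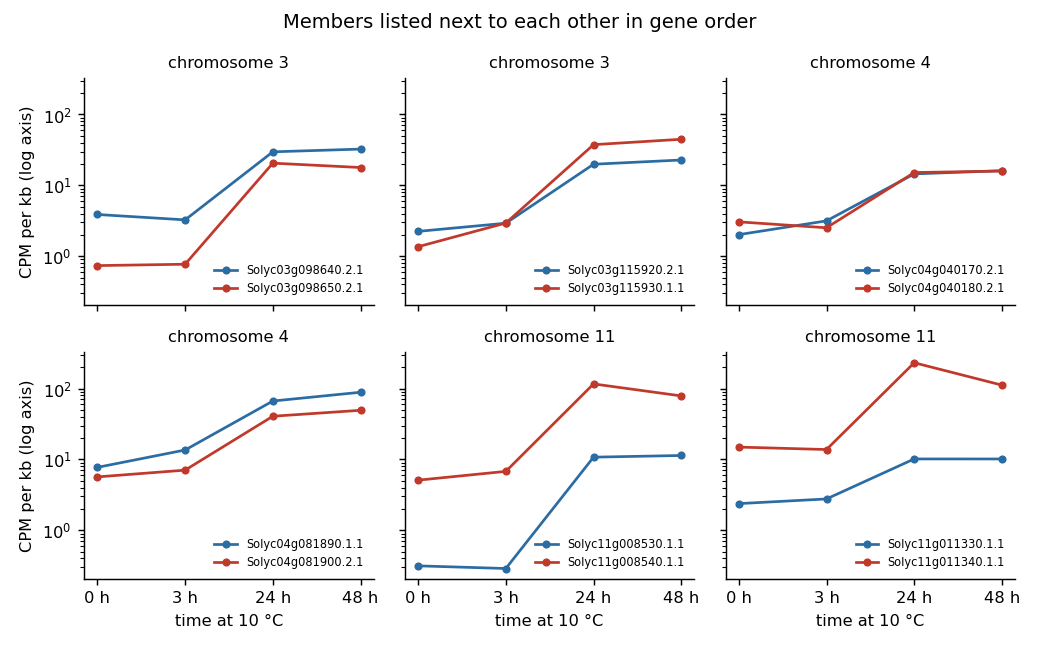
Levels in CPM per kilobase (log axis) at the 4 times for the 6 pairs of genes of the group that are immediate neighbours in gene order, 1 panel per pair and 1 library per time. In the pair of Solyc11g008530.1.1 and Solyc11g008540.1.1 the levels at 0 h are 0.31 and 5.09, and in that of Solyc04g040170.2.1 and Solyc04g040180.2.1 the levels at 48 h are 16.1 and 15.9.

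The remaining 4 pairs had other genes between them, and none of those compared was 4-fold above 0 h at 24 or 48 h. These are few genes, and some had too few reads to be compared. A gene within the 3 h limit and 4-fold higher at both late times would itself have been chosen. The choice thus partly sets this outcome, and nothing is read from it. Between Solyc07g045140.2.1, with 122, 134, 873 and 613 reads, and Solyc07g045180.2.1, with 45, 42, 799 and 573, lay 3 genes with log2 ratios at 24 h of 1.24, 0.97 and -0.44. Both members of this pair were lower at 48 h than at 24 h, by 1.56-fold (1.41 to 1.74) and 1.53-fold (1.37 to 1.71). On chromosome 9, Solyc09g092080.2.1 had 415, 399, 1977 and 2454 reads, and Solyc09g092130.2.1 had 651, 528, 5305 and 4051. Among the 4 genes between them the log2 ratio at 48 h ran from -2.85 to 0.95.

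On chromosome 1, Solyc01g107780.2.1 had 45, 30, 651 and 489 reads, not far from the abundant Solyc01g107820.2.1. Also on chromosome 1, Solyc01g007190.2.1 had 67, 31, 378 and 374 reads, and Solyc01g007250.2.1 had 307, 271, 1518 and 1678. The former had the lowest 3 h ratio of the whole group, 0.52 (0.33 to 0.80), before its late rise. Over the whole group, 143 genes that were compared but not chosen lay immediately beside a chosen one. Their median log2 ratio was 0.18 at 24 h and 0.11 at 48 h, and 21 of them (14.7%) were at least 2-fold higher at 24 h, beside 9.65% of all genes compared, and 19 (13.3%) at 48 h, beside 10.04%. At least 4-fold higher were 2 of the 143 at 24 h (1.40%, beside 2.17%) and 4 at 48 h (2.80%, beside 2.06%). The shares over all genes compared include the 133 genes, all at least 4-fold higher by choice, while the 143 leave them out. Such shares are not alike, and nothing is read from their differences.

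Every numbered chromosome held some of the 133 genes, in uneven numbers. Chromosome 3 held 18 genes, chromosome 9 held 17, and chromosomes 1 and 7 held 16 each. As a share of the genes compared on each chromosome, chromosome 9 had the highest with 1.69% and chromosome 7 followed with 1.51%, against 0.961% overall. Chromosome 12 had the lowest, with 3 of 835 genes (0.36%). Neighbouring genes are not independent, and these shares are descriptions. The group had a median gene length of 1440 bases (quartiles 1014 and 1942) beside 1487 (1022 and 2106) over all genes compared.

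**Figure D5:**
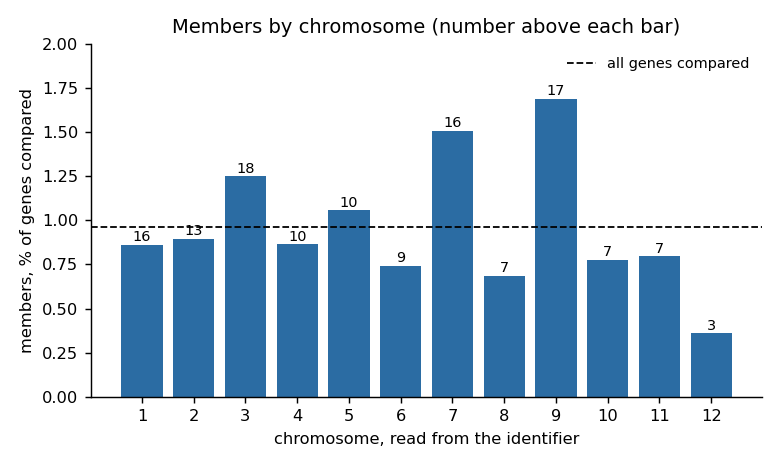
Genes of the group as a percentage of the genes compared on each of the 12 chromosomes, with their number above each bar and the overall 0.961% as a dashed line. Chromosomes 9 and 7 stand highest at 1.69% and 1.51%, and chromosome 12 lowest at 0.36%.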

How the data were processed

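Leaf RNA of 4 libraries, 1 per time, was analysed. Per the file headers, the authors deposited a unique-read count per gene, its length, a percent of that length covered by reads and an RPKM value. In every library the deposited counts summed to the total in the header, and the deposited RPKM followed from count, length and that total. Genes without a read are not listed. No source used here gives the aligner, the counter and its strand setting, or the build and annotation.

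Scaling used TMM factors from edgeR 4.0.16 under R 4.3.3 (0.94, 0.90, 1.06 and 1.12 at 0, 3, 24 and 48 h), and edgeR served no other purpose. Log2 ratios include a pseudocount of 5 reads (0.135 CPM), so changes of low genes are understated. Fold values are scaled count ratios without it, with 95% Clopper-Pearson intervals (Python 3.11.15, SciPy 1.17.1). With 1 library per time no test across genes was run. The code was tested on simulated data.

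The members, and the lists of genes named, were chosen with earlier results of these data known. Named were the 8 genes with the highest CPM at 48 h, the 8 with the largest smaller late ratio, the 3 with the largest and the 3 with the smallest ratio of 48 h to 24 h, 3 on each side of the 4-fold limit, and those within 5 listed genes of each other, 38 members in all. Genes beside the 3 h limit and between pairs were added after seeing values. Functional lists could not be used: none of the 133 identifiers matched any of 41476 RefSeq genes, and the annotation text left in unnamed columns of the 3 h and 24 h files, for 73 genes, touched no member. Alternatives were DESeq2 1.42.0 size factors, plain totals, other pseudocounts, filters, thresholds and windows of gene order, and 3 h as the base.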

Additional observations from a re-analysis of the deposited data

Results flagged for a closer look

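Outside the comparison, some genes of low count had reads mainly at the late times. Of the 1994 genes with no read at 0 h, 70 had at most 3 reads at 3 h and over 3 reads at both 24 and 48 h, above the 3 reads that a count of 0 allows. Their median count was 6 at 24 h and 8 at 48 h, with highest counts of 444 and 259, and 3 of them had at least 50 reads at 48 h. In the opposite direction and by a stricter rule, 13 genes had over 3 reads at both 0 and 3 h but none at 24 and 48 h. The rules differ, so the counts of 70 and 13 cannot be compared.

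Of the named genes, 5 had a 3 h level below 0 h with a counting interval that left out no difference, and so moved one way at 3 h and the other way later. Their log2 ratios at 3 h were -0.87 for Solyc01g007190.2.1, -0.21 for Solyc07g047790.2.1, -0.18 for Solyc01g106210.2.1, -0.18 for Solyc03g079930.2.1 and -0.10 for Solyc09g083080.2.1. The last 4 are among the genes with the most reads, where small differences exceed counting error. No replicate exists, so whether 3 h differs from the later times beyond plant-to-plant spread was not tested.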

How the results depend on the processing

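No paired analysis was possible because there is only 1 library at each time, which also means that none can be omitted. The group of 133 genes became 202 with plain library totals, a scaling under which all genes compared shifted by medians of 0.20 in log2 at 24 h and 0.26 at 48 h, became 230 with no minimum CPM, and became 803 with a 2-fold threshold. Each of these contained all 133. A minimum of 20 CPM left 65, all among the 133, since fewer genes are compared. DESeq2 size factors and a pseudocount of 0.5 reads each gave 134 genes, 132 of them shared, and 25 reads gave 107, 104 of them shared. With 3 h as the base, an alternative chosen after seeing the data, there were 155, of which 101 were shared. The median log2 ratio of 48 h to 24 h stayed between 0.0040 and 0.07 over the planned settings. With plain library totals it was 0.064, below the median of 0.071 over all genes compared. With the main scaling it was 0.05, above the 0.0015 of all genes compared. Genes of the group near another one numbered 12 within 2 listed genes (9.02%, beside 2.04% of other genes) and 26 within 10 (19.5%, beside 9.99%). Of the 76 late ratios of the 38 named genes, none changed sign, which their choice at 4-fold or more made nearly certain. With a pseudocount of 25 reads 9 of them fell short of 4-fold, and the lowest log2 ratio was 1.68. Genes with few reads at 0 h carry the widest counting error, and 15 of the 133 had fewer than 50.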
